A study of Homo sapiens with 18 samples.

Results

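Oxidative phosphorylation (OXPHOS) genes encode the subunits of the respiratory chain and of ATP synthase in the inner mitochondrial membrane. They were chosen here by name, as NDUFA, NDUFB, NDUFC, NDUFS and NDUFV genes (complex I), SDHA to SDHD (complex II), UQCR genes (complex III), COX4 to COX8 genes (complex IV), ATP5 genes (complex V) and the messenger RNAs of mitochondrial DNA, where the mean normalized count reached 100. The rule chose 90 of the 26702 genes in the tables, 77 encoded in the nucleus and 13 in mitochondrial DNA. The nuclear genes divide into 34 of complex I, 4 of complex II, 9 of complex III, 11 of complex IV and 19 of complex V, and the mitochondrial genes into 7 of complex I, 1 of complex III, 3 of complex IV and 2 of complex V. All 90 are annotated as protein coding and had a value in every comparison. Names ending in P and a number were dropped as pseudogenes among the nuclear names, where 21 of 56 such names reached the same minimum mean. The rule goes by name, so NDUFA4, a subunit of complex IV, counts under complex I. Genes that are not structural subunits can count with the subunits, among them COX7A2L, a supercomplex factor, and ATP5IF1, an inhibitor of ATP synthase.

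The measurements are RNA-seq of polyadenylated RNA from U2OS, an osteosarcoma cell line with wild-type p53. Cells received a control siRNA (siControl), siANKRA2 or siRFXANK, and then 10 µM Nutlin-3a or its solvent DMSO for 24 h, in 3 samples for each of the 6 groups, 18 in all. Nutlin-3a blocks the binding of MDM2 to p53 and so stabilizes p53, RFXANK is a subunit of the RFX complex, and ANKRA2 is a related ankyrin repeat protein. The siRFXANK samples were registered apart from the others and without a siControl group, so batch and siRNA cannot be told apart within a treatment. The labels name 1 siRNA for each gene and do not say whether the 3 samples of a group were separate cultures, so p-values measure the spread between these samples, which may be technical. The tables used here compare groups and give no single library, so levels are given per group and the depth of a library is unknown.

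Electrons pass from NADH (complex I) or succinate (complex II) through complex III and cytochrome c to oxygen at complex IV, and complex V uses the resulting proton gradient to make ATP. Complex II comes from nuclear genes alone, whereas the other complexes join products of both genomes. Nuclear genes are transcribed one by one, and mitochondrial DNA is transcribed from each strand as a long precursor that is cut into single RNAs. The heavy-strand precursor carries 12 of the 13 protein-coding genes, whose RNAs therefore are not independent of each other, and the light-strand precursor carries MT-ND6. Most mitochondrial messenger RNAs carry short poly(A) tails made by their own enzyme. Neither tail length nor how well each RNA, such as MT-ND6, was captured as polyadenylated RNA was measured here.

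Before the comparisons, the cells and the targets were checked. COL1A1 (mean normalized count 64040), SPARC (29460), RUNX2 (454.3) and ALPL (148.2) were expressed. COL1A2 was at 33.2 and BGLAP at 2.08, and SP7 and IBSP have no row. The siRFXANK labels name epithelial cells. Of the epithelial markers KRT8 (21460) and KRT18 (12960) were high, CLDN4 was at 598.9 and EPCAM at 160.7. CDH1 was at 32.9, ESRP1 at 7.77 and KRT19 at 1.67, and GRHL2 has no row. Of 6 blood cell markers, PTPRC (3.81) and HBA1 (1.2) had a row. ANKRA2 had log2 fold changes of -1.81 and -2.58 after siANKRA2, in DMSO and Nutlin-3a, and RFXANK had -2.96 and -3.16 after siRFXANK. In the same order RFXANK had -0.37 and -0.44 after siANKRA2, and ANKRA2 had 0.73 and 0.46 after siRFXANK. With Nutlin-3a over DMSO, ANKRA2 had 1.955 in siControl and 1.19 in siANKRA2 cells. In each of the 6 tables the median log2 fold change of genes with a mean of at least 100 lay within 0.02 of 0.

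Per kb of exon, the mitochondrial genes stood above most nuclear genes. The mean normalized count per kb had a median of 15710 over the 13 mitochondrial genes, from 810 for MT-ND6 to 38310 for MT-CO3, the third core subunit of complex IV. Over the 77 nuclear genes the median was 984, from 37.4 for ATP5S to 7357 for ATP5F1B, the catalytic beta subunit of ATP synthase. The highest nuclear gene per kb was NDUFS5 (7061) in complex I, SDHD (892) in complex II, UQCRQ (3877) in complex III and COX8A (7134) in complex IV. Length was that of all annotated exons of a gene joined, which can exceed its messenger RNA, so these ranks depend on the annotation. SDHA, with 8383 bases against 2838 for SDHD, had the higher mean normalized count (3543 against 2532). Just inside the minimum stood NDUFB8 (mean normalized count 408.5), ATP5S (422.8) and MT-ND6 (425.3), and just outside NDUFA13 (35.6), NDUFV2 (27.7) and COX6B2 (12.5). NDUFV2 encodes a core subunit of complex I, and its pseudogene NDUFV2P1 had a mean of 2049, so the count of NDUFV2 is uncertain. Other genes overlap 21.0% of the exons of NDUFA13, and another gene 28.4% of those of NDUFV2. The low counts of both may depend on how reads were assigned, which was not tested. The ubiquitous isoforms of complex IV were all measured, COX4I1 with 7715, COX6A1 with 1744, COX6B1 with 4547, COX7A2 with 3045, COX7B with 3027, COX8A with 3617 and NDUFA4 with 2276. Of the tissue-restricted isoforms COX8C was at 0.989 and NDUFA4L2 at 1.89, and COX4I2, COX6A2, COX7A1 and COX7B2 have no row in the tables used here.

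Nutlin-3a raised the messenger RNAs of mitochondrial DNA in siControl cells, while among nuclear OXPHOS genes more fell than rose. Of the 13 mitochondrial genes 12 were higher at an adjusted p under 0.05 in the submitters' DESeq2 table, by 0.45 (MT-CO3) to 0.66 (MT-ND1) on the log2 scale, and none was lower, also at an unadjusted p under 0.05. Of these genes only MT-ND3 (3.5%) and MT-CYB (5.0%) share under 10% of their longest transcript with transcripts of other genes, and these 2 were higher. The others share up to 66.7% (MT-CO1), so their values may depend on how reads were assigned, which was not tested. Of the 77 nuclear genes 6 were higher and 29 lower, with a median log2 fold change of -0.10. In that table, of all genes, 21.9% were higher and 21.2% lower, and of those with a mean of at least 100 32.4% and 35.1%. The share of nuclear OXPHOS genes that fell, 37.7%, was thus near that of genes with such a mean, and the share that rose, 7.79%, was below it. In bulk RNA, fewer cells of a type and less RNA per cell cannot be told apart.

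Levels below are normalized counts, scaled so that the 6 groups average the deposited mean of the gene. MT-ND1, a core subunit of complex I, was at 8490 with DMSO and 13380 with Nutlin-3a under siControl, 12730 and 16030 under siANKRA2, and 15530 and 21910 under siRFXANK. The siControl DMSO group was the lowest of the 6 and the siRFXANK Nutlin-3a group the highest. Its log2 fold change with Nutlin-3a in siControl cells was 0.66 ± 0.10 (SE, the submitters' DESeq2 adjusted p = 6.67e-10). MT-CO1, the catalytic subunit of complex IV and the gene with the highest mean of all 90, was at 41610 with DMSO and 58620 with Nutlin-3a under siControl, 47500 and 60770 under siANKRA2, and 54280 and 74310 under siRFXANK. MT-CO2, the subunit of complex IV that takes electrons from cytochrome c, was at 16250 with DMSO and 23360 with Nutlin-3a under siControl, 18090 and 23970 under siANKRA2, and 24110 and 28820 under siRFXANK. MT-CYB, the cytochrome b of complex III, was at 12380 with DMSO and 18110 with Nutlin-3a under siControl, 14120 and 18530 under siANKRA2, and 19430 and 26160 under siRFXANK. MT-ATP6, which forms part of the proton path of complex V, was at 13160 with DMSO and 19220 with Nutlin-3a under siControl, 15280 and 20300 under siANKRA2, and 17540 and 23790 under siRFXANK. For each of the 12 heavy-strand genes the Nutlin-3a group lay above its DMSO group under all 3 siRNAs. The light-strand gene MT-ND6 was at 259.2 with DMSO and 270.3 with Nutlin-3a under siControl, 412.7 and 520.1 under siANKRA2, and 476.2 and 613.1 under siRFXANK. Its log2 fold change in siControl cells, 0.06 ± 0.30 (SE), had an adjusted p of 0.901, and its SE was the largest of the 90. Whether strand was used in counting is not given in the sources used here, so reads of MT-ND6 and of the heavy-strand precursor opposite to it may not be told apart.

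**Figure D1:**
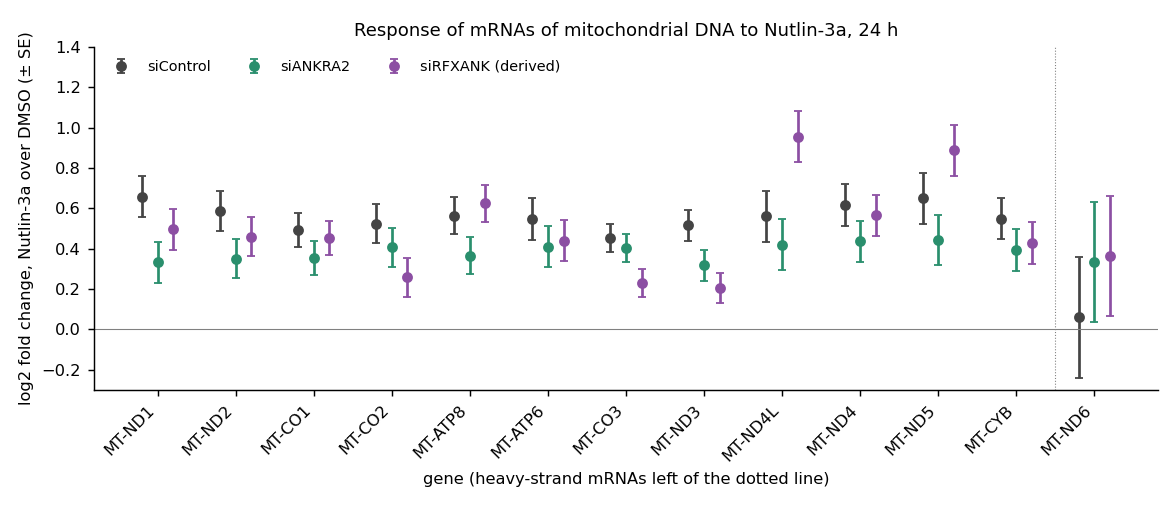
Log2 fold change (± SE) of the 13 protein-coding genes of mitochondrial DNA with Nutlin-3a over DMSO, by siRNA. The 12 heavy-strand genes lie between 0.45 and 0.66 in siControl and between 0.32 and 0.44 in siANKRA2 cells, and MT-ND6 has the widest error bars.

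Summed over genes, the 13 mitochondrial genes made up 0.648% of all normalized counts in siControl cells with DMSO and 0.944% with Nutlin-3a. The 77 nuclear genes made up 0.959% and 0.887%. The ratio of the mitochondrial to the nuclear sum was 0.675 with DMSO and 1.065 with Nutlin-3a under siControl, 0.883 and 1.143 under siANKRA2, and 0.892 and 1.504 under siRFXANK. The Nutlin-3a group was the higher one under each siRNA, and these ratios of group levels have no test of their own. The ribosomal RNAs of the same heavy strand are not OXPHOS genes. The large one, MT-RNR2, had a log2 fold change of 0.76 (adjusted p = 3.48e-25) in siControl cells, and the small one, MT-RNR1, 0.24 (adjusted p = 0.0913).

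By complex, the nuclear genes past the threshold in siControl cells were 2 higher and 10 lower of 34 in complex I, 1 and 2 of 4 in complex II, 1 and 3 of 11 in complex IV, and 2 and 9 of 19 in complex V. In complex III 5 of 9 were lower. Of genes with a mean of at least 100, 32.4% were higher and 35.1% lower in that comparison. The subunits of succinate dehydrogenase moved apart. The membrane anchor SDHD went from 3494 to 2567 normalized counts, a log2 fold change of -0.44 ± 0.05 (SE, adjusted p = 9.11e-17) and the largest fall of the 90. SDHB, which carries the iron-sulfur clusters, went from 1997 to 1484 (-0.43 ± 0.06). The flavoprotein SDHA instead rose from 3197 to 3724 (0.22 ± 0.04), and the other anchor SDHC had 0.06 ± 0.05 with an adjusted p of 0.425. SDHD, SDHA and SDHC share 30.9%, 22.9% and 15.3% of their longest transcripts with transcripts of other genes, and SDHB 0.1%. ATP5F1B fell from 25300 to 19570 (-0.37 ± 0.03, adjusted p = 4.51e-36). The largest nuclear rises were those of NDUFV3 and ATP5IF1. NDUFV3, an accessory subunit of complex I named here after its values were seen, went from 841.2 to 1202 (0.51 ± 0.05, adjusted p = 2.92e-20). ATP5IF1, which inhibits ATP synthase when it runs in reverse, went from 2045 to 2851 (0.48 ± 0.06, adjusted p = 5.57e-15).

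In siANKRA2 cells the heavy-strand genes rose with Nutlin-3a again, and most nuclear genes did not pass the test. Of the 13 mitochondrial genes 12 were higher, by 0.32 (MT-ND3) to 0.44 (MT-ND5). Of the 77 nuclear genes 10 were higher and 6 lower, with a median of 0.03, against 15.5% and 17.0% of all genes and 21.8% and 26.8% of those with a mean of at least 100. The largest falls were those of ATP5F1B (-0.24 ± 0.03, from 12230 to 10330), of ATP5F1C, the gamma subunit of the rotor (-0.24 ± 0.05), and of SDHD (-0.18 ± 0.05). ATP5IF1 rose from 1731 to 2205 (0.35 ± 0.06, the submitters' DESeq2 adjusted p = 1.00e-07). None of the 9 nuclear genes of complex III passed the submitters' DESeq2 test, and 0 had an unadjusted p under 0.05 in either direction.

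The response of siRFXANK cells has no table of its own and was derived from 3 tables, in which the siControl groups cancel. There the heavy-strand genes rose and most nuclear genes fell. Of the 13 mitochondrial genes 12 were higher, by 0.21 (MT-ND3) to 0.96 (MT-ND4L). Of the 77 nuclear genes 64 were lower and 1 was higher, NDUFV3 with 0.40 ± 0.05 (SE), and the median was -0.31. Of all genes 22.5% were lower and 22.8% higher, and of those with a mean of at least 100 36.1% and 34.2%. Lower genes were 29 of 34 in complex I, 2 of 4 in complex II, 9 of 9 in complex III, 9 of 11 in complex IV and 15 of 19 in complex V. Of the 33 nuclear genes that share under 10% of their longest transcript with transcripts of other genes, 29 were lower. The largest falls were in complex I. The core subunit NDUFS3 went from 2277 to 1485 normalized counts (-0.62 ± 0.06), and the accessory subunits NDUFA9 of the matrix arm and NDUFB10 of the membrane arm had -0.55 ± 0.06 and -0.55 ± 0.06. In siControl cells the same 3 genes had -0.34 ± 0.06, -0.35 ± 0.06 and -0.29 ± 0.06. NDUFS3 shares 45.1% of its longest transcript with transcripts of other genes, and other genes overlap 22.4% of its exons. MT-ND4L and MT-ND4 form 1 bicistronic messenger RNA, and their log2 fold changes were 0.96 ± 0.13 and 0.57 ± 0.10.

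**Figure D2:**
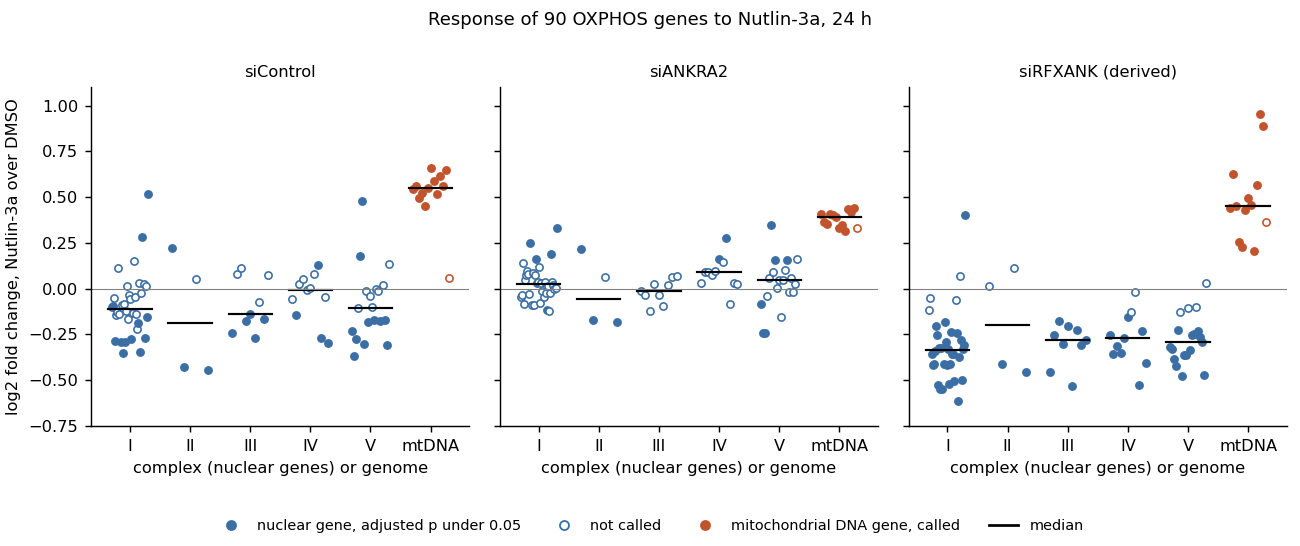
Log2 fold change of each OXPHOS gene with Nutlin-3a over DMSO in siControl, siANKRA2 and siRFXANK cells, with nuclear genes by complex and genes of mitochondrial DNA apart. Filled points passed an adjusted p under 0.05 and lines are medians. The mitochondrial medians are 0.55, 0.39 and 0.45, and the nuclear medians -0.10, 0.03 and -0.31.

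The difference between the responses was tested gene by gene, with a two-sided normal test adjusted over all genes. For siANKRA2 minus siControl 16 of the 90 genes passed an adjusted p under 0.05 above 0, all of them nuclear. None passed below 0, where 3 had an unadjusted p under 0.05. By sign alone 64 differences were above 0 and 26 below. Of all genes 11.4% passed above 0 and 12.5% below, and of those with a mean of at least 100 18% and 19.1%. The share of OXPHOS genes that passed above 0, 17.8%, was thus near that of genes with such a mean, while none passed below. With group levels scaled by their total, 25 genes were called. The heavy-strand genes had differences from -0.32 (MT-ND1, SE 0.14, adjusted p = 0.0878) to -0.05 (MT-CO3, SE 0.10), and 1 of the 13 mitochondrial genes had an unadjusted p under 0.05. MT-RNR2 had a difference of -0.40 (adjusted p = 0.000650).

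ATP5MC1, one of the genes for subunit c of the ATP synthase ring, had the largest of these differences, 0.40 ± 0.08 (SE, adjusted p = 3.89e-06). It went from 4534 to 3675 normalized counts in siControl cells and from 3279 to 3497 in siANKRA2 cells, so the groups lay apart in DMSO and close together in Nutlin-3a. ATP5MC2 and ATP5MC3, which encode the same mature protein, had differences of 0.17 ± 0.09 and 0.18 ± 0.08, with adjusted p of 0.176 and 0.0671. NDUFA8, an accessory subunit of complex I, followed with 0.34 ± 0.10, and ATP5PO, the stalk subunit that confers sensitivity to oligomycin, with 0.33 ± 0.11. COX8A of complex IV had 0.32 ± 0.08, SDHD 0.27 ± 0.07 and SDHB 0.26 ± 0.08, all past the threshold.

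For siRFXANK minus siControl 34 of the 90 genes passed an adjusted p under 0.05 below 0. None passed above 0, where 2 had an unadjusted p under 0.05. By sign alone 81 differences were below 0 and 9 above. Of all genes 9.64% passed below 0 and 11.6% above, and of those with a mean of at least 100 16.8% and 20.9%. The nuclear genes that passed were 16 in complex I, 1 in complex II, 5 in complex III, 5 in complex IV and 6 in complex V. They were 33 in all, with a median of -0.21 over the 77. The other gene was MT-ND3 of complex I, with -0.31 ± 0.11 (adjusted p = 0.0219). ATP5IF1 had the largest difference, -0.61 ± 0.09 (adjusted p = 7.86e-11). It rose from 2045 to 2851 in siControl cells, and its levels in siRFXANK cells were 1888 and 1727. ATP5F1E, the epsilon subunit, followed with -0.41 ± 0.10, at 3396 and 3844 in siControl and 4680 and 3996 in siRFXANK cells. It shares 33.1% of its longest transcript with transcripts of other genes. COX6A1 had -0.40 ± 0.08, at 1567 and 1624 in siControl and 1936 and 1517 in siRFXANK cells. In both of these genes the siRFXANK group was the higher one in DMSO and close to siControl in Nutlin-3a.

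Both differences use the same siControl groups, so values are only set side by side. NDUFA6 of complex I had 0.26 ± 0.08 for siANKRA2 and -0.23 ± 0.08 for siRFXANK. NDUFS3 had 0.22 ± 0.09 and -0.27 ± 0.09. COX5A, a nuclear subunit of complex IV, had 0.24 ± 0.08 and -0.21 ± 0.08. UQCR10, a small subunit of complex III, had 0.23 ± 0.08 and -0.21 ± 0.08. All of these values passed their tests, above 0 for siANKRA2 and below 0 for siRFXANK.

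**Figure D3:**
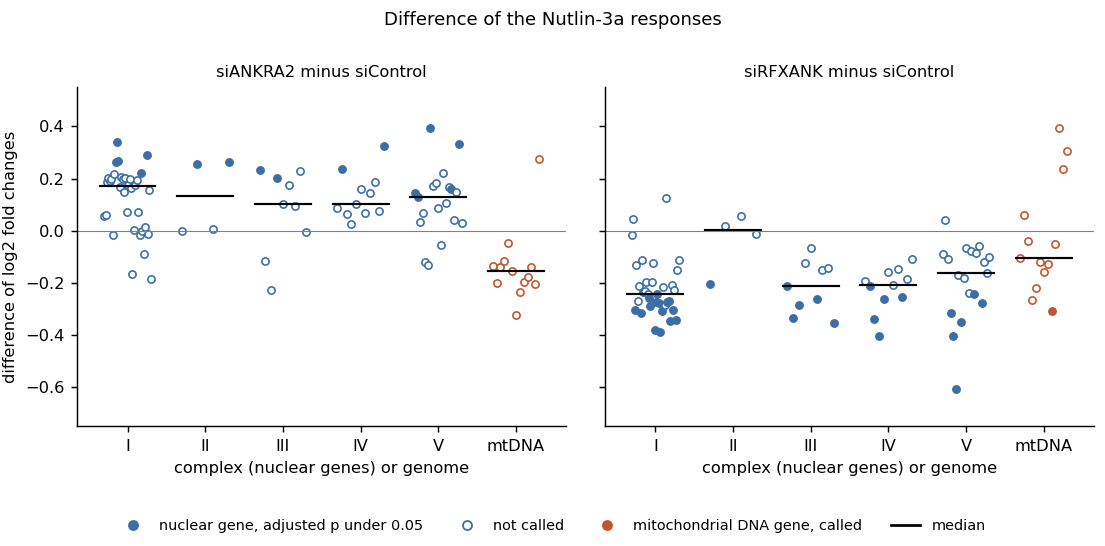
Difference of each gene's log2 response to Nutlin-3a between a knockdown and siControl, with nuclear genes by complex and genes of mitochondrial DNA apart. Filled points passed an adjusted p under 0.05, 16 above 0 for siANKRA2 and 34 below 0 for siRFXANK, and both panels use the same siControl groups.

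Under siANKRA2 the nuclear genes spread in both directions. In DMSO 25 of the 77 were higher and 26 lower than in siControl cells, with a median log2 fold change of 0.02, against 24.3% and 24.5% of all genes and 37.7% and 39.2% of those with a mean of at least 100. Complex V had 4 higher and 12 lower of 19, with a median of -0.28, and complex I 12 higher and 6 lower of 34, with a median of 0.07. In Nutlin-3a 39 nuclear genes were higher and 17 lower, with a median of 0.14, against 24.6% and 25.5% of all genes and 38.5% and 39.6% of those with such a mean. There complex I had 21 higher and 3 lower, and complex V 6 and 9. Of the 13 mitochondrial genes 7 were higher in DMSO, where MT-ND2 had 0.66 ± 0.10, and 5 in Nutlin-3a, where MT-ND6 had 0.94 ± 0.30 (adjusted p = 0.00375). None was lower in either treatment, also at an unadjusted p under 0.05.

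The largest falls under siANKRA2 were those of UQCRB and ATP5F1B. UQCRB, the ubiquinone-binding subunit of complex III, was at 2593 with DMSO and 2799 with Nutlin-3a under siControl, 1179 and 1085 under siANKRA2, and 2713 and 2399 under siRFXANK. Both siANKRA2 groups lay below the other 4, with log2 fold changes over siControl of -1.14 ± 0.07 in DMSO (adjusted p = 4.08e-58) and -1.37 ± 0.07 in Nutlin-3a (adjusted p = 7.51e-83). ATP5F1B was at 25300 with DMSO and 19570 with Nutlin-3a under siControl, 12230 and 10330 under siANKRA2, and 19520 and 15550 under siRFXANK. Its log2 fold changes under siANKRA2 were -1.05 ± 0.03 and -0.92 ± 0.03, and again both siANKRA2 groups were the lowest. UQCRB and ATP5F1B share 4.90% and 1.2% of their longest transcripts with transcripts of other genes.

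Other subunits of ATP synthase did not follow ATP5F1B alike. The membrane subunit ATP5ME had -0.65 ± 0.09 and -0.71 ± 0.09 in DMSO and Nutlin-3a, with 61.6% of its exons overlapped by other genes. The gamma subunit ATP5F1C had -0.60 ± 0.05 and -0.56 ± 0.05. The epsilon subunit ATP5F1E, of the same rotor, instead had 0.38 ± 0.07 and 0.26 ± 0.07, with 23.2% of its exons overlapped by another gene. All 6 values of these genes passed the test. ATP5IF1 had -0.24 ± 0.06 and -0.37 ± 0.06.

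Among the rises under siANKRA2, NDUFB8, an accessory subunit of complex I, was at 333.7 in siControl and 523.2 in siANKRA2 cells with DMSO (0.65 ± 0.08), and at 371.1 and 517.8 with Nutlin-3a (0.48 ± 0.08), with 48.5% of its exons overlapped by other genes. NDUFA9 had 0.38 ± 0.06 and 0.64 ± 0.06. UQCRHL, an intronless copy of the hinge protein gene UQCRH, had 0.44 ± 0.07 and 0.67 ± 0.07, and reads of the copy and of UQCRH may be split by the counting.

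Under siRFXANK most nuclear genes were higher in DMSO, and fewer were in Nutlin-3a. In DMSO 46 of the 77 were higher than in siControl cells and 12 lower, with a median log2 fold change of 0.22, against 20.9% and 21.2% of all genes and 34.0% and 35.4% of those with a mean of at least 100. Complex I had 26 higher of 34, complex IV 8 of 11 and complex V 6 of 19. In Nutlin-3a 12 nuclear genes were higher and 20 lower, with a median of -0.00, against 19.8% and 19.6% of all genes and 32.1% and 30.6% of those with such a mean. Of the 13 mitochondrial genes 11 were higher in DMSO and 11 in Nutlin-3a, and none was lower in either, also at an unadjusted p under 0.05. MT-ND1 had 0.87 ± 0.10 and 0.71 ± 0.10, MT-ND5 0.38 ± 0.12 and 0.61 ± 0.12, and MT-ND6 0.88 ± 0.30 and 1.18 ± 0.30. MT-ATP8 had 0.04 ± 0.09 and 0.10 ± 0.09 and passed the test in neither. MT-ATP6, which overlaps 22.2% of MT-ATP8, had 0.41 ± 0.10 and 0.31 ± 0.10 and passed in each. MT-ATP8 shares 44.6% of its longest transcript with transcripts of other genes, and how its reads were assigned was not tested. MT-RNR1 had 1.14 and 1.0.

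The largest falls under siRFXANK in both treatments were those of COX7B, UQCR11 and COX7A2. COX7B, a small subunit of complex IV, was at 4168 with DMSO and 3456 with Nutlin-3a under siControl, 3263 and 3081 under siANKRA2, and 2474 and 1718 under siRFXANK. Its log2 fold changes over siControl were -0.75 ± 0.05 in DMSO (adjusted p = 4.90e-42) and -1.01 ± 0.06 in Nutlin-3a (adjusted p = 8.68e-71). UQCR11, a small subunit of complex III, was at 948.0 with DMSO and 1004 with Nutlin-3a under siControl, 1076 and 1051 under siANKRA2, and 597.1 and 501.4 under siRFXANK. Both siRFXANK groups lay below the other 4, with -0.67 ± 0.07 and -1.0 ± 0.07. COX7A2, also of complex IV, was at 3149 with DMSO and 3331 with Nutlin-3a under siControl, 3656 and 4050 under siANKRA2, and 2132 and 1949 under siRFXANK. It was the lowest under siRFXANK (-0.56 ± 0.07 and -0.77 ± 0.08) and the highest under siANKRA2 (0.22 ± 0.07 and 0.28 ± 0.07). Among the rises in DMSO, NDUFA3 of complex I went from 588.4 to 997.5 (0.76 ± 0.08), and NDUFS4, an accessory subunit of the module that takes up electrons, from 1193 to 1947 (0.71 ± 0.06).

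**Figure D4:**
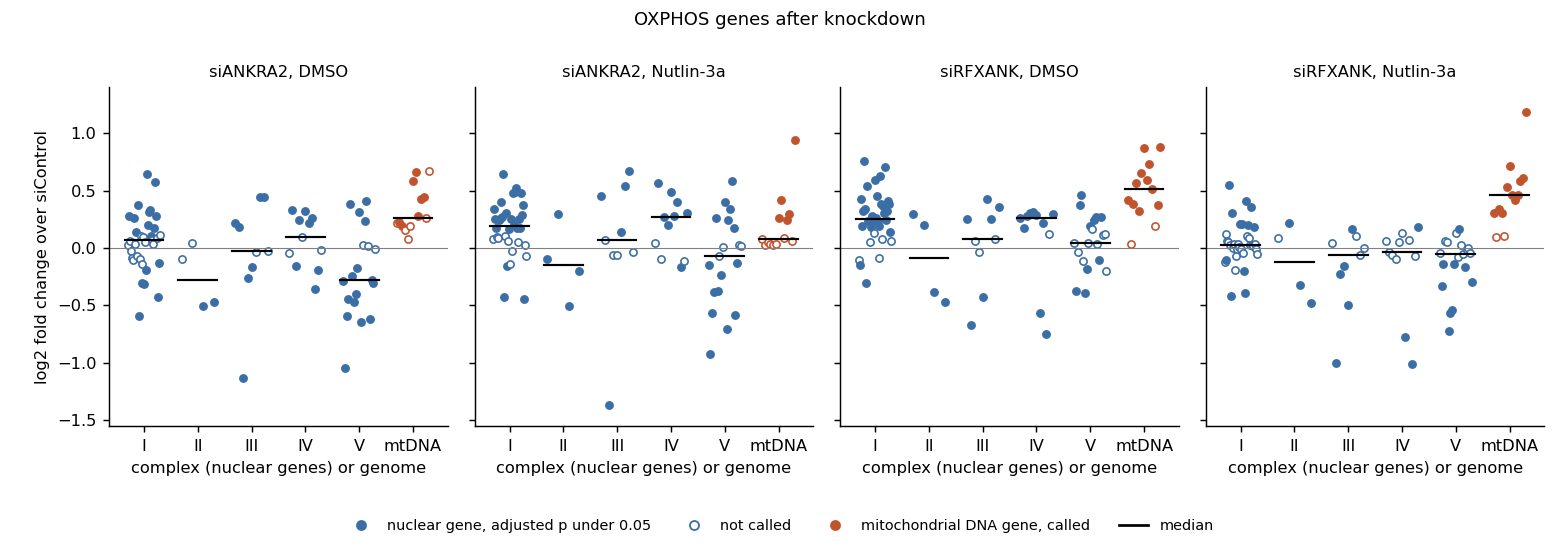
Log2 fold change of each OXPHOS gene in siANKRA2 or siRFXANK over siControl cells, in DMSO and in Nutlin-3a. Filled points passed an adjusted p under 0.05 and lines are medians. UQCRB (-1.14 and -1.37) and ATP5F1B (-1.05 and -0.92) are the lowest points under siANKRA2, and COX7B (-0.75 and -1.01) under siRFXANK.

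The 4 knockdown comparisons share the siControl groups within each treatment, so the following values are set side by side, first siANKRA2 in DMSO and Nutlin-3a and then siRFXANK in DMSO and Nutlin-3a. NDUFC1, a small subunit of complex I, had log2 fold changes of 0.32, 0.49, 0.63 and 0.41. NDUFA6 had 0.14, 0.40, 0.54 and 0.30, and NDUFS4 0.17, 0.17, 0.71 and 0.36. The anchors of succinate dehydrogenase were below siControl throughout, SDHC with -0.51, -0.50, -0.38 and -0.32, and SDHD with -0.47, -0.20, -0.47 and -0.48. SDHB had 0.04, 0.30, 0.20 and 0.22. ATP5MC2 had -0.40, -0.23, -0.19 and -0.54. The SE of these values lay between 0.05 and 0.08.

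**Figure D5:**
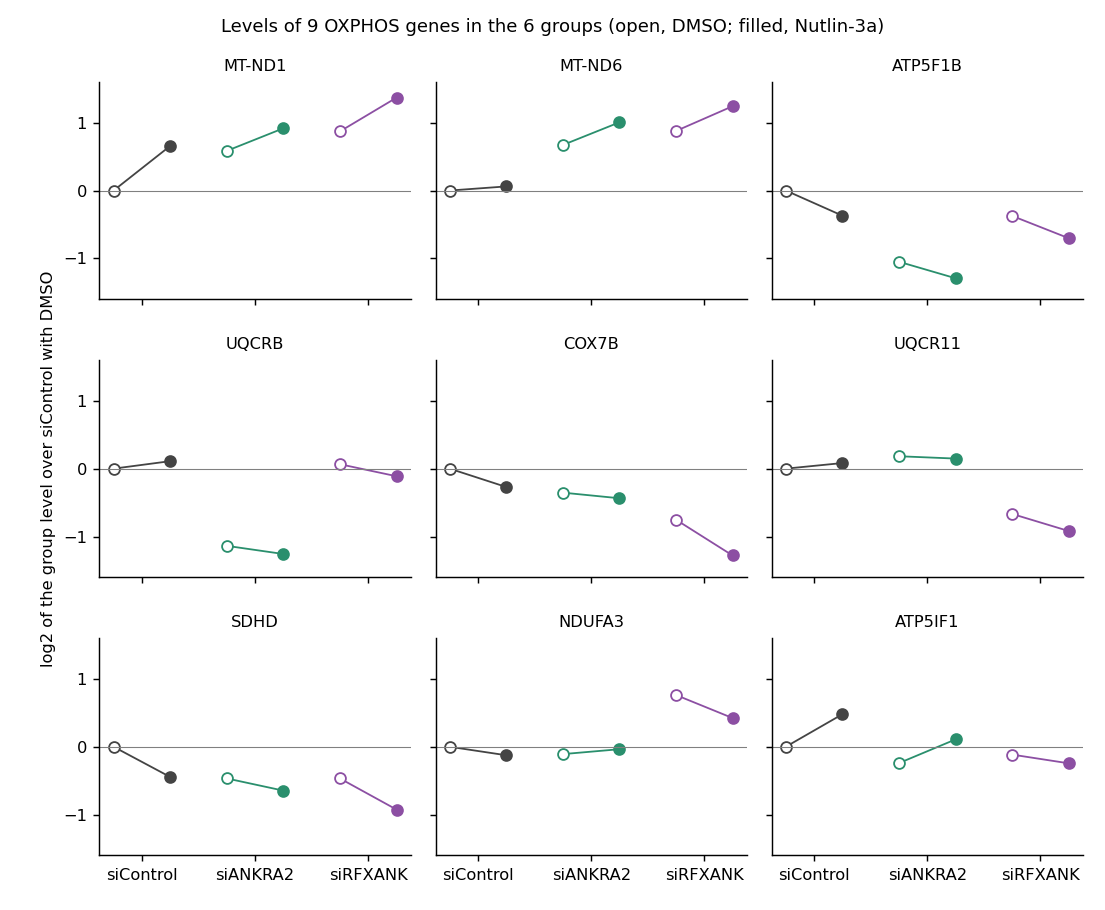
Level of 9 OXPHOS genes in the 6 groups, as log2 over siControl with DMSO. MT-ND1 is above its DMSO group with Nutlin-3a under each siRNA, UQCRB is lowest under siANKRA2, COX7B and UQCR11 are lowest under siRFXANK, and ATP5IF1 rises with Nutlin-3a under siControl (0.48) and siANKRA2 (0.35).

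Promoter sequence of the nuclear genes was read from RefSeq (GRCh38.p14), 250 bases before and 50 after the start, and 60 of the 77 matched an entry. NRF1, GABPA and YY1 are activators of many nuclear OXPHOS genes, and ESRRA is a nuclear receptor of the same programme. Motifs were searched on both strands, and no match of one motif overlapped that of another. The NRF1 motif GCGCANGCG was in 21 of the 60 (35%), against 9.02% of 27305 genes with an entry and 12.5% of the protein-coding ones. The ETS motif CCGGAAG, which GABPA reads, was in 19 (31.7%), against 12.2% and 16.5%. The YY1 motif AAGATGGCG was in 8 (13.3%), against 2.14% and 3.21%, and in 7 of these 8 it lay 10 to 25 bases after the start. The ESRRA motif TCAAGGTCA was in 1 gene, SDHD, against 0.432% of all genes with an entry, and the RFX motif GTTGCCA in 1, ATP5F1A, against 4.98%. With Nutlin-3a in siRFXANK cells 20 of the 21 genes with an NRF1 motif and 32 of the 39 without one were lower. In siControl cells the counts were 10 of 21 and 15 of 39. Of all genes with a mean of at least 100, 36.1% were lower in siRFXANK and 35.1% in siControl cells. These matches and counts are descriptions, with no test.

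The 250 bases before the start are shown for 6 genes of the results above: SDHD and NDUFS3, with the largest falls after Nutlin-3a in siControl and siRFXANK cells, NDUFV3 and ATP5IF1, with the largest nuclear rises in siControl cells, and COX7B and UQCR11, which were lowest under siRFXANK. They read 5′ to 3′ on the strand of the gene, with matches of the motifs in capitals.
SDHD (chr11:112086623-112086872, plus strand): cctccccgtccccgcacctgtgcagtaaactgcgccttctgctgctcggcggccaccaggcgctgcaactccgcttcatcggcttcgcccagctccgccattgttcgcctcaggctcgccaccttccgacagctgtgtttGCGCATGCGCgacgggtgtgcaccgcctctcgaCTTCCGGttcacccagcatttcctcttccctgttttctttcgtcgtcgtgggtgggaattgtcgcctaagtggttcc
NDUFS3 (chr11:47578824-47579073, plus strand): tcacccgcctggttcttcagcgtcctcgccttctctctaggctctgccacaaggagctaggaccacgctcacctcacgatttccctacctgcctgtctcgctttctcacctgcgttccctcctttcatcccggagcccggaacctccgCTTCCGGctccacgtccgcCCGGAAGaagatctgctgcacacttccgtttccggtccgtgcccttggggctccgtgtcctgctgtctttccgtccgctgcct
NDUFV3 (chr21:42893059-42893308, plus strand): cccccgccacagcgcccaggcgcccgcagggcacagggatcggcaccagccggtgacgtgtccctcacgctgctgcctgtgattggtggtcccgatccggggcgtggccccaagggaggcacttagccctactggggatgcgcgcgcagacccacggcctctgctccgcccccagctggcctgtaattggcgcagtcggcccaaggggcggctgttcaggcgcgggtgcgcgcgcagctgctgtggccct
ATP5IF1 (chr1:28235874-28236123, plus strand): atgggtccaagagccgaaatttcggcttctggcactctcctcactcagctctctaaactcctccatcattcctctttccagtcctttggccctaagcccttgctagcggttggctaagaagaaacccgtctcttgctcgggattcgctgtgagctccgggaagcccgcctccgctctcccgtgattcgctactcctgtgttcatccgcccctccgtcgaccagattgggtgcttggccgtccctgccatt
COX7B (chrX:77899218-77899467, plus strand): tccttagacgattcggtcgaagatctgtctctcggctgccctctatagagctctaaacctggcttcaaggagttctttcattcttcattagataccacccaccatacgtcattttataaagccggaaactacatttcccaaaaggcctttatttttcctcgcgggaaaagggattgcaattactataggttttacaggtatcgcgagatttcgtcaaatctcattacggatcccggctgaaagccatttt
UQCR11 (chr19:1605463-1605712, minus strand): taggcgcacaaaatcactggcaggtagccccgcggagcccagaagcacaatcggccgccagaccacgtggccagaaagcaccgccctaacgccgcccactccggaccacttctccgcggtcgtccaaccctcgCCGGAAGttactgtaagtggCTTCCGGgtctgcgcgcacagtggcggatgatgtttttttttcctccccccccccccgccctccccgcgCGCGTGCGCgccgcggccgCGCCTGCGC
SDHD shows an NRF1 and an ETS match, NDUFS3 shows ETS matches on both strands, and UQCR11 shows matches of both motifs, while NDUFV3, ATP5IF1 and COX7B show none in this window. The RefSeq start of NDUFS3 and NDUFV3 lies 13738 and 13665 bases from the start of the gene in GENCODE 29, and which start these cells used was not measured.

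Genes around the respiratory chain with a mean of at least 100 were counted in the same way, with the counts of each list given in the order of the siControl, siANKRA2 and siRFXANK response. Of all genes with such a mean 35.1%, 26.8% and 36.1% were lower with Nutlin-3a and 32.4%, 21.8% and 34.2% higher. Of 75 genes of mitochondrial ribosomal proteins, which translate the messenger RNAs of mitochondrial DNA, 41, 30 and 62 were lower (54.7%, 40.0% and 82.7%) and 5, 6 and 2 higher, with medians of -0.20, -0.11 and -0.32. Of 14 genes of the tricarboxylic acid cycle 9, 5 and 10 were lower (64.3%, 35.7% and 71.4%) and 1 was higher in each. Of 16 assembly factors of complex I 6, 5 and 9 were lower (37.5%, 31.2% and 56.2%) and 4, 3 and 3 higher. Of 19 assembly factors of complex IV 6, 4 and 10 were lower (31.6%, 21.1% and 52.6%) and 3, 3 and 0 higher. Of 12 assembly factors of complexes II, III and V 6, 2 and 8 were lower (50.0%, 16.7% and 66.7%) and 1 was higher in each. SCO2, a copper chaperone of complex IV and a known p53 target, had a mean of 9.86. In GENCODE 29 its exons overlap a further entry of the same name on the same strand, so reads of SCO2 may not have been assigned to it, and no change is given.

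Of 10 electron carriers and subunits outside the name rule 4, 3 and 8 were lower (40.0%, 30.0% and 80.0%) and 1 was higher in each. CYCS, cytochrome c, had -0.59 in siControl cells (adjusted p = 3.25e-30), and CYC1, the cytochrome c1 of complex III, -0.40 (adjusted p = 6.33e-21). The higher gene was COQ8A, of coenzyme Q synthesis, with 1.31, 0.69 and 1.18 under siControl, siANKRA2 and siRFXANK.

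Of 16 genes that transcribe and copy mitochondrial DNA 6, 3 and 5 were lower with Nutlin-3a (37.5%, 18.8% and 31.2%) and 3, 1 and 3 higher. TFAM, which packages mitochondrial DNA and starts its transcription, had -0.40 in siControl cells (adjusted p = 9.71e-19), where the heavy-strand RNAs were higher. Over siControl it had -1.19 and -0.93 under siRFXANK and 0.23 and 0.44 under siANKRA2, in DMSO and Nutlin-3a. RRM2B, a ribonucleotide reductase subunit that p53 induces, had 2.0, 1.09 and 1.81 with Nutlin-3a under siControl, siANKRA2 and siRFXANK. TWNK, the helicase of mitochondrial DNA, had 1.35 and 1.28 under siANKRA2 and -0.23 and -0.11 under siRFXANK. Of 17 genes for the processing and stability of mitochondrial RNA 11, 11 and 7 were lower with Nutlin-3a (64.7%, 64.7% and 41.2%) and 1, 0 and 3 higher. The part of these genes in the levels of the mitochondrial RNAs was not tested.

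Of 10 regulators of mitochondrial biogenesis 5, 5 and 4 were lower with Nutlin-3a (50.0%, 50.0% and 40.0%) and 2, 1 and 3 higher. NRF1 had -0.83, -0.47 and -0.52, each past the threshold. MYC, a further regulator, had 1.28 and 1.17 over siControl under siANKRA2 and -1.05 and -0.87 under siRFXANK. The coactivator PPARGC1A, with a mean of 38.6 below the minimum of the list, had 1.55 (adjusted p = 4.59e-10) and 2.23 (adjusted p = 5.05e-14) under siANKRA2.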

How the data were processed

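RNA-seq of polyadenylated RNA was measured in 18 samples of U2OS cells in 6 groups of 3, grouped by the labels. The submitters' processing notes name bcl2fastq 2.20.0.422, Trimmomatic 0.39, cutadapt 2.10, FastQC 0.11.9, SAMtools 1.10, Picard, featureCounts 1.6.5, DESeq2 1.20.0 and hg38. The aligner, the annotation and the use of strand in counting are not given in the sources used here. The authors deposited 6 comparison tables made with DESeq2. They give for each gene the mean normalized count over all samples, treated as a signal, the authors' log2 fold change and its SE in log2 units, the authors' Wald score, and the authors' p-value, raw and adjusted by Benjamini-Hochberg. These columns of the authors' comparisons are the values used, since no values per library were at hand, and no count model was fitted. The depth of each library is unknown.

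Directions were read as knockdown over siControl and Nutlin-3a over DMSO. For the siRFXANK tables that reading makes RFXANK lower after its own siRNA and is an assumption. The tables were treated as 1 joint fit. Each gene had the same mean in all of them, and the 4 comparisons of siControl and siANKRA2 groups close to rounding error. Closure cannot be checked for siRFXANK, so the joint fit of all 6 tables is in part an assumption. From them the response of siRFXANK cells and the response differences were derived, with SEs from the summed or subtracted squared SEs, two-sided normal tests and Benjamini-Hochberg adjustment over all genes, a method tested on simulated data. Group levels came from the log2 fold changes, scaled so that the 6 groups average the deposited mean, and are approximate. Sequence shared with other genes was measured as the 31-base stretches of the longest GENCODE 29 transcript that their transcripts also hold. Python 3.11.15 with NumPy 2.4.6, pandas 2.3.3, SciPy 1.17.1 and matplotlib 3.10.9 was used.

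The pseudogene name filter was applied to nuclear names only, since it would drop MT-ATP6 and MT-ATP8. Genes named in the text are every mitochondrial member, the 3 largest rises and falls past the threshold in each of 9 results, the highest per kb in each complex, members called in 1 direction in all 4 knockdown comparisons or in both response differences, those nearest the minimum mean, isoform pairs, SDHA to SDHD, the targets, and a few genes of each pathway list. The members and lists were chosen with earlier results of these data known.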

Additional observations from a re-analysis of the deposited data

Results flagged for a closer look

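The responses to Nutlin-3a differed between groups by the test of the difference itself. For siANKRA2 minus siControl 16 of 90 OXPHOS genes (17.8%) passed it, all above 0. Of genes with a mean of at least 100, 18% passed above 0 and 19.1% below. The share above 0 was thus near that of such genes, while none of the 90 passed below 0. The 3 largest differences were 0.40 for ATP5MC1, 0.34 for NDUFA8 and 0.33 for ATP5PO on the log2 scale. For siRFXANK minus siControl 34 (37.8%) passed it, all below 0, where 16.8% of genes with such a mean passed below 0 and 20.9% above. The 3 largest were -0.61 for ATP5IF1, -0.41 for ATP5F1E and -0.40 for COX6A1. Both use the same siControl groups, and for siRFXANK a batch that acts alike in both treatments cancels in the difference, while one that does not cannot be told apart from the siRNA.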

How the results depend on the processing

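Counts of OXPHOS genes past the threshold are given here in the order siControl, siANKRA2 and siRFXANK response, siANKRA2 in DMSO and Nutlin-3a, siRFXANK in DMSO and Nutlin-3a, and siANKRA2 and siRFXANK response difference. They were 47, 28, 77, 58, 61, 69, 43, 16 and 34. With a log2 fold change of at least 0.5 as well they were 11, 0, 12, 11, 13, 15, 12, 0 and 1, so most changes were small. Among the 35 genes with under 10% shared sequence they were 17, 8, 31, 22, 24, 31, 18, 8 and 18, where fewer genes were counted. At an adjusted p under 0.01 the response differences fell to 7 and 20. The siANKRA2 difference had 25 when p was adjusted over genes whose mean reached 100, and 25 when group levels were scaled by their total. Adjusted over genes with such a mean, MT-ATP6, MT-ND5 and MT-ND6 passed the test for siANKRA2 in DMSO, and scaled by total MT-ATP8 and MT-CO1 in DMSO and MT-ND4 in Nutlin-3a did not. No result changed direction under these alternatives, or with centring on the median gene, a minimum mean of 10, the other pair of tables, without MT-ATP6 and MT-ATP8, or without MT-ND6, the last chosen after seeing the data. No paired analysis was possible because single samples were not at hand, and for the same reason no replicate could be left out. The SE of MT-ND6, and its capture as polyadenylated RNA, which was not measured, limit what can be said of the light strand.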
